A study of Mus musculus with 9 samples.

Results

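The copine family was followed through RNA-seq libraries of mouse extra-embryonic endoderm stem (XEN) cells that carried a deletion upstream of Xist. The family was taken by name, as the genes Cpne1 to Cpne9, which are 9 of the 55401 genes in the main count table. It was chosen by the values of Cpne8, which had no count in any WT_EV library, so Cpne8 against WT_EV is a description with no test. The other 8 genes belong by name. Levels are CPM, the read count relative to the scaled library total. A gene was tested when at least 2 of the 7 libraries reached 0.407 CPM, here taken on the library total before scaling. Of the copine genes 5 did so: Cpne1, Cpne2, Cpne3, Cpne5 and Cpne8. Cpne1 and Cpne5 reached that level in WT_EV libraries only, and Cpne8 in deletion libraries only. These 3 genes could therefore enter the test only by being high in some group, and the number of copine genes that passed it is not used as support for anything.

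Copines are soluble proteins that bind phospholipid membranes when calcium rises. Each carries a pair of C2 domains, the calcium-dependent membrane-binding fold that is also found in synaptotagmins and classical protein kinase C, followed by a von Willebrand factor A domain through which partner proteins are bound. They are conserved from plants and protists to mammals. In mammals some members are found in many tissues and others mainly in brain, where Cpne6 takes part in the plasticity of dendritic spines.

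All libraries came from the XEN line of a cross between Mus musculus molossinus and Mus musculus. The groups were DeltXp, with the deletion on the paternal X chromosome (n = 2), DeltXp_DeltXm, with the deletion on both (n = 2), and WT_EV, wild type (n = 3). A further wild-type group, WT_clone (n = 2), was held only for part of its gene table, which lists Cpne1 and no other copine gene. The genotype labels call the deletions paternal and homozygous Xist deletions, while the study's design text places them upstream of Xist. The 7 libraries of the main table are labelled female. The meaning of EV and the ends of the deletion are not stated in the labels. The titles name both DeltXp libraries D1 and both DeltXp_DeltXm libraries D3. If these are single lines, line and genotype cannot be told apart. The design text calls the deletion replicates biological, and nothing says the same of WT_EV, so p-values measure the spread between these samples.

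Total counts were 24586135 and 29335803 in DeltXp, 25589912 and 27334893 in DeltXp_DeltXm, and 14352719 to 19833044 in WT_EV. All 10 XEN marker genes had a mean of at least 1 CPM in every group. Col4a1, however, lay at 0 CPM in 1 DeltXp library and at 1983 CPM in the other. The 10 genes summed to 7425 to 17109 CPM in DeltXp, 11224 to 14152 CPM in DeltXp_DeltXm and 21317 to 28882 CPM in WT_EV. Fibroblast markers were at or near 0 (at most 0.0511 CPM summed over 4 genes). The 5 neural markers summed to 0.818 to 1.70 CPM in DeltXp, 0.628 to 1.62 CPM in DeltXp_DeltXm and 3.42 to 13.8 CPM in WT_EV, and 3 of them had no count in each group. The deletion and WT_EV libraries differed in composition throughout. Rn7sk, an abundant RNA without a poly(A) tail, had 2 to 7 counts in the deletion libraries, against 157188 to 255029 in WT_EV. The median gene with under 42% GC in its longest transcript had a log2 change of 2.03 in DeltXp and 1.61 in DeltXp_DeltXm against WT_EV, while the median gene with at least 54% GC had -3.44 and -3.05. Library preparation and genotype cannot be told apart in these comparisons, so each tested change of a deletion against WT_EV below is also given from a fit with offsets for GC content and length. Levels, sums and shares carry no such correction.

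Near-identical relatives can exchange reads, so the coding sequences were compared first. Reads were counted over whole exons, and untranslated bases were not compared. Cpne8 has 1731 coding bases beside 4164 exon bases, and Cpne3 has 1599 beside 7131. The longest coding sequences in GENCODE M21 held 533 codons in Cpne3, 577 in Cpne8 and 593 in Cpne5. Identity between members ran from 61.1% of aligned bases (Cpne3 with Cpne7) to 75.9% (Cpne5 with Cpne9). The closest relatives of Cpne8 were Cpne5 (73.2%) and Cpne9 (71.2%), and Cpne8 and Cpne3 were 63.5% identical. The longest run of identical coding bases between any pair of members was 31 bases, shared by Cpne5 and Cpne6. In coding sequence, Cpne8 shared no run over 20 bases with another member. The windows below show that longest run, and then the longest runs of Cpne8 with its closest relative and with Cpne3, the other abundant member. They are taken from the GENCODE M21 transcripts on GRCm38, each spliced over 2 exons except the last, with the identical bases in capitals and 20 bases to either side in lower case. In order they lie at chr17:29159202-29159983 (minus strand), chr14:55516705-55516961 (plus), chr17:29164683-29166736 (minus), chr15:90521917-90540250 (minus), chr4:19543295-19550601 (minus) and chr15:90571961-90572017 (minus).
Cpne5 beside Cpne6: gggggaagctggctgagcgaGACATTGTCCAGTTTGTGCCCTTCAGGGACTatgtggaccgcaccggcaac
Cpne6 beside Cpne5: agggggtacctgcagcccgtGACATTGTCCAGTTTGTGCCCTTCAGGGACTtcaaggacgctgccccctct
Cpne5 beside Cpne8: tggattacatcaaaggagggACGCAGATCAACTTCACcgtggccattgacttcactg
Cpne8 beside Cpne5: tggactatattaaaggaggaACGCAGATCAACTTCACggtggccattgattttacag
Cpne3 beside Cpne8: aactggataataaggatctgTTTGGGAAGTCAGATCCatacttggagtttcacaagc
Cpne8 beside Cpne3: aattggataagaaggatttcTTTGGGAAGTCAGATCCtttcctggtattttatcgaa
Of the pair with the longest run, Cpne6 had no count in any of the 7 libraries, and Cpne5 had 49 over the WT_EV libraries and none in the deletion libraries.

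Cpne8, the gene by which the family was picked, had counts in the deletion libraries only. Cpne8 (ENSMUSG00000052560) lies on the minus strand at chr15:90487482-90679432, with 4164 exon bases that no other gene's exons overlap. It had 1559 and 1533 counts in DeltXp, 417 and 891 in DeltXp_DeltXm, and 0 in all 3 WT_EV libraries. The 4 deletion libraries held it and the 3 WT_EV libraries did not. Its level was 79.7 and 59.2 CPM in DeltXp, a mean of 69.4 ± 14.5 (SD, n = 2), and 17.3 and 35.0 CPM in DeltXp_DeltXm, a mean of 26.1 ± 12.5 (SD, n = 2). Against a floor of 3 counts over the WT_EV libraries, which is 0.0516 CPM, it was at least 1346-fold higher in DeltXp and at least 507-fold higher in DeltXp_DeltXm. Floors cover counting error only. In bulk RNA, more cells with Cpne8 and more Cpne8 RNA per cell cannot be told apart, and this holds for every gene below.

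Cpne8 was also high among the genes that WT_EV lacked. Among the 94 tested genes with no WT_EV count it ranked 1 by mean level over the 4 deletion libraries, at 47.8 CPM. The next was Lpcat2, at 12.6 CPM. The family was picked by the values of Cpne8, so this rank is a description and not a further result. Genes with 43.0% GC, as in the longest transcript of Cpne8, give a yardstick for the composition of the libraries: the 2688 tested genes within 2 percentage points had a median log2 change of 1.59 in DeltXp and 1.39 in DeltXp_DeltXm against WT_EV. The opposite pattern was also present in the libraries, since 209 tested genes had counts in WT_EV and none in the 4 deletion libraries.

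**Figure D1:**
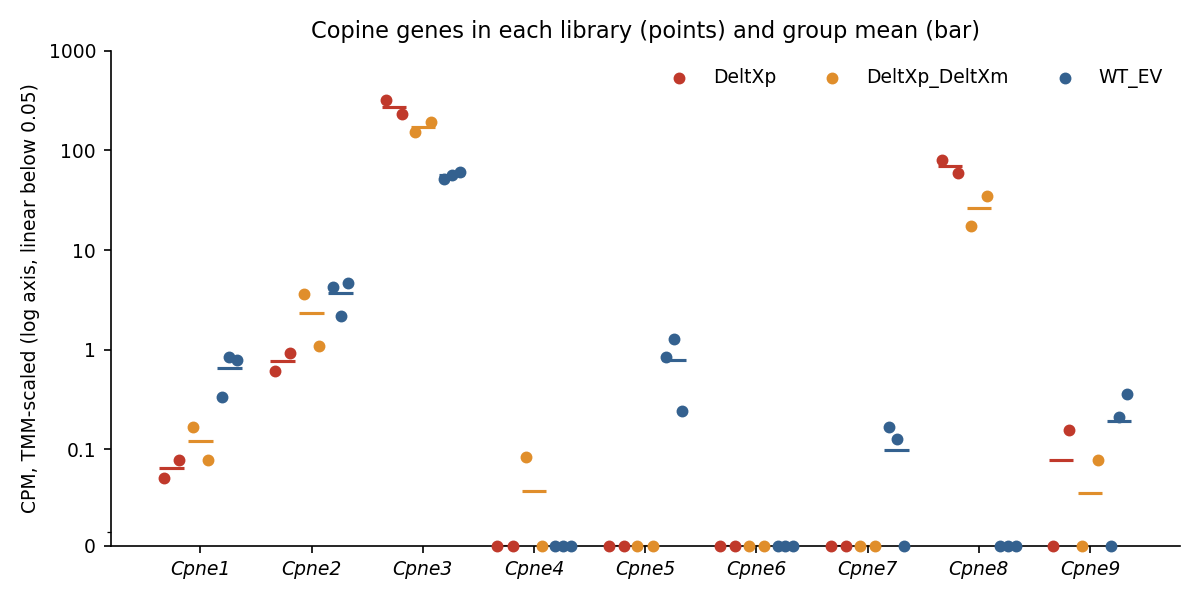
Level of the 9 copine genes in each library, as TMM-scaled CPM on an axis that is logarithmic above 0.05 and linear below; points are libraries (DeltXp n = 2, DeltXp_DeltXm n = 2, WT_EV n = 3) and bars are group means. Cpne8 lies between 17.3 and 79.7 CPM in the 4 deletion libraries and at 0 in WT_EV, Cpne3 is the highest gene in every library, and Cpne5 has counts in WT_EV only.

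Between the deletions Cpne8 was lower in DeltXp_DeltXm than in DeltXp without passing the test. The difference did not use the WT_EV values by which the family was picked. Both DeltXp_DeltXm libraries (17.3 and 35.0 CPM) lay below both DeltXp libraries (79.7 and 59.2 CPM). The log2 change was -1.41 (SE 0.41, 95% interval -2.34 to -0.47), with an unadjusted p of 0.00834 and an adjusted p of 0.115 in the edgeR quasi-likelihood test over all 15331 genes. In that comparison 0.444% of tested genes passed, 43 higher and 25 lower (33 higher and 36 lower with RLE size factors), and no copine gene did. With offsets for GC content and length the log2 change of Cpne8 was -1.21 (adjusted p 0.158), which did not pass. Cpne8 passed with DESeq2 (log2 change -1.51, adjusted p 0.0214), which called 1167 genes. It passed without the filter on low counts (-1.40, adjusted p 0.00588), a fit that called 1436 genes. It also passed with the crossed replicate block, an alternative chosen after seeing the data (-1.48, adjusted p 0.0155), which called 1573 genes. The main test called 68 genes, far fewer than these settings, so their calls of Cpne8 are no independent support. In the main test, leaving out 1 library at a time moved the log2 change of Cpne8 between -2.004 (without DeltXp_DeltXm replicate 2) and -0.99 (without DeltXp_DeltXm replicate 1). Over all planned and added alternatives its adjusted p ran from 0.00588 to 0.407, and the direction was the same in each.

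Cpne3 was the most abundant copine gene in every library, and it was higher in both deletions in the edgeR test but did not pass once GC content and length were taken into account. Cpne3 is the member found in many tissues, whose human form binds the receptor ERBB2 and has been tied to cell migration. Cpne3 (ENSMUSG00000028228) lies on the minus strand at chr4:19519254-19570108. It had 6205 and 5972 counts in DeltXp, 3729 and 4850 in DeltXp_DeltXm, and 921, 1352 and 1002 in WT_EV. Its level was 317 and 231 CPM in DeltXp, 155 and 191 CPM in DeltXp_DeltXm, and 51.8, 57.0 and 60.1 CPM in WT_EV. All 4 deletion libraries lay above all 3 WT_EV libraries, whose own spread was narrow.

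In DeltXp, Cpne3 rose by 2.28 on the log2 scale (SE 0.23, 95% interval 1.76 to 2.80, adjusted p 1.79e-05), which is 4.86-fold, against WT_EV. In DeltXp_DeltXm it rose by 1.62 (SE 0.23, interval 1.10 to 2.13, adjusted p 1.98e-04), which is 3.06-fold, against the same WT_EV libraries. Cpne3 is an AT-rich gene, at 39.3% GC, and genes like it moved in the same direction. The 1595 tested genes within 2 percentage points of its GC content had a median log2 change of 2.04 in DeltXp and 1.65 in DeltXp_DeltXm, and 56.5% and 48.8% of them lay below Cpne3. With offsets for GC content and length the change of Cpne3 was 0.24 in DeltXp (adjusted p 0.306) and 0.10 in DeltXp_DeltXm (adjusted p 0.692), and neither passed. DeltXp_DeltXm and DeltXp differed by -0.67 on the log2 scale (SE 0.26, interval -1.24 to -0.09, adjusted p 0.183). With offsets this difference was -0.14 (adjusted p 0.756). Genes of like GC content had a median of -0.43 between the deletions without offsets.

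Cpne2 was lower in DeltXp and scattered in DeltXp_DeltXm, and with offsets its sign turned. Cpne2 (ENSMUSG00000034361) lies on the plus strand at chr8:94532990-94570531. It had 12 and 24 counts in DeltXp, 87 and 28 in DeltXp_DeltXm, and 75, 52 and 77 in WT_EV. Its level was 0.614 and 0.927 CPM in DeltXp, 3.61 and 1.10 CPM in DeltXp_DeltXm, and 4.22, 2.19 and 4.62 CPM in WT_EV. Both DeltXp libraries lay below every WT_EV library. In DeltXp_DeltXm, replicate 1 lay among the WT_EV values and replicate 2 near DeltXp.

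In DeltXp, Cpne2 fell by 2.23 on the log2 scale against WT_EV (SE 0.67, interval -3.72 to -0.75, adjusted p 0.0120), and in DeltXp_DeltXm its log2 change was -0.64 (SE 0.61, interval -1.995 to 0.71, adjusted p 0.370). Cpne2 is GC-rich, at 54.9%, and the 2650 tested genes of like GC content had a median log2 change of -2.73 in DeltXp and -2.24 in DeltXp_DeltXm. With offsets the sign turned, to 0.07 in DeltXp (adjusted p 0.928) and 1.36 in DeltXp_DeltXm (adjusted p 0.0831). Without DeltXp replicate 1, which leaves 1 DeltXp library, the log2 change was -1.87 and no longer passed (adjusted p 0.0920), and without DeltXp replicate 2 it was -2.56 (adjusted p 0.0401). DeltXp_DeltXm differed from DeltXp by 1.59 on the log2 scale (SE 0.69, interval 0.05 to 3.14, adjusted p 0.225), or by 1.29 with offsets (adjusted p 0.336).

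**Figure D2:**
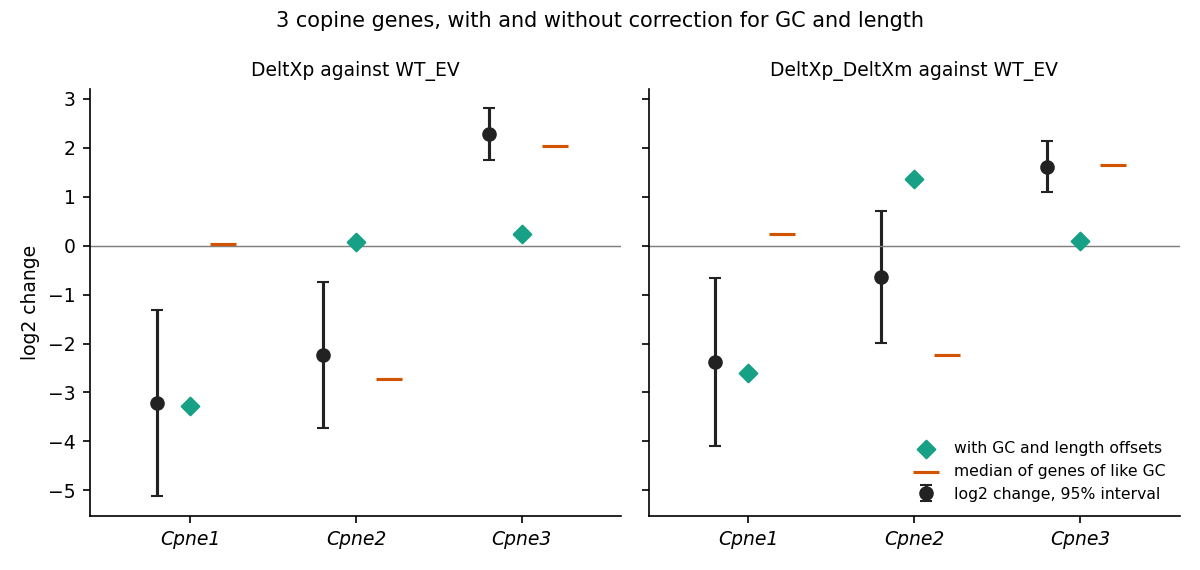
Log2 change of Cpne1, Cpne2 and Cpne3 in DeltXp (left panel) and DeltXp_DeltXm (right panel) against WT_EV: black points with 95% intervals are from the edgeR test, green diamonds from the fit with offsets for GC content and length, and orange dashes are the median log2 change of tested genes within 2 percentage points of GC. Cpne3 lies beside its orange dash in both panels and moves to 0.24 and 0.10 with offsets, Cpne2 crosses 0, and Cpne1 stays at -3.28 and -2.599. For Cpne1, GC content and length include exon bases shared with other genes, 84.1% of its model, so its dash and diamond are uncertain.

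Cpne1 was lower in both deletions, from few counts. Cpne1 is found in many tissues, and its human form binds several signalling proteins. Cpne1 (ENSMUSG00000074643) lies on the minus strand at chr2:156071842-156111965. It had 1 and 2 counts in DeltXp, 4 and 2 in DeltXp_DeltXm, and 6, 20 and 13 in WT_EV. That is 0.0511 and 0.0772 CPM in DeltXp, 0.166 and 0.0786 CPM in DeltXp_DeltXm, and 0.338, 0.844 and 0.780 CPM in WT_EV. The deletion and WT_EV libraries did not overlap. Cpne1 reached the filter on low counts through WT_EV alone, where it is high, so its p-values in the filtered table are a description. Without the filter its log2 change was -3.22 in DeltXp (adjusted p 0.00667) and -2.38 in DeltXp_DeltXm (adjusted p 0.0344) in the edgeR test. That fit takes the choice away but also changes how the spread is estimated. Between the deletions it called 1436 genes, against 68 with the filter. Its p-values for Cpne1 are therefore no independent support.

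In the filtered table the log2 change of Cpne1 in DeltXp against WT_EV was -3.22 (SE 0.85, interval -5.12 to -1.32, adjusted p 0.00645), or -3.28 with offsets (adjusted p 0.00874). In DeltXp_DeltXm it was -2.38 (SE 0.77, interval -4.09 to -0.67, adjusted p 0.0193), or -2.599 with offsets (adjusted p 0.0186). The GC content of its longest transcript, 48.4%, lies where the median tested gene of like GC had a log2 change of 0.04 in DeltXp and 0.23 in DeltXp_DeltXm. That comparison and the offsets rest on a gene model largely shared with other genes, as described below. With 1 library left in the deletion group, the log2 change in DeltXp was -2.89 without its replicate 1 (adjusted p 0.0593), and in DeltXp_DeltXm it was -2.89 without its replicate 1 (adjusted p 0.0572) and -1.94 without its replicate 2 (adjusted p 0.138), and none of these passed. With DESeq2 the DeltXp_DeltXm change did not pass either (-2.38, adjusted p 0.0884). Without WT_EV replicate 2 or WT_EV replicate 3, Cpne1 missed the filter on low counts and was not tested. In DeltXp_DeltXm against DeltXp it was 0.84 (SE 1.02, interval -1.43 to 3.10, adjusted p 0.671).

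The gene model of Cpne1 is the only one of the 9 that is largely shared. Of its 4507 exon bases, 3789 (84.1%) lie inside exons of other genes on the same strand, 3755 of them shared with Gm28036 and 404 with Rbm12, an RNA-binding protein gene, and 718 are its own. The labels do not say how reads in shared exons were counted, so the level of Cpne1 is uncertain. Gm28036 had no count in the deletion libraries and 1 in each WT_EV library, below Cpne1 in every library, so few reads can have been counted for both. The GC content and length used for Cpne1 include the shared bases. If reads there were left out, its GC comparison and offsets describe mostly sequence that was not counted. Rbm12 had 1063 and 1989 counts in DeltXp, 1492 and 945 in DeltXp_DeltXm, and 346, 626 and 298 in WT_EV, far more than Cpne1. The exons of the other members were their own, apart from 146 bases of Cpne5 that face AC162182.2 on the opposite strand, 67 bases of Cpne7 that hold Mir7080, and 3 bases of Cpne9.

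**Figure D3:**
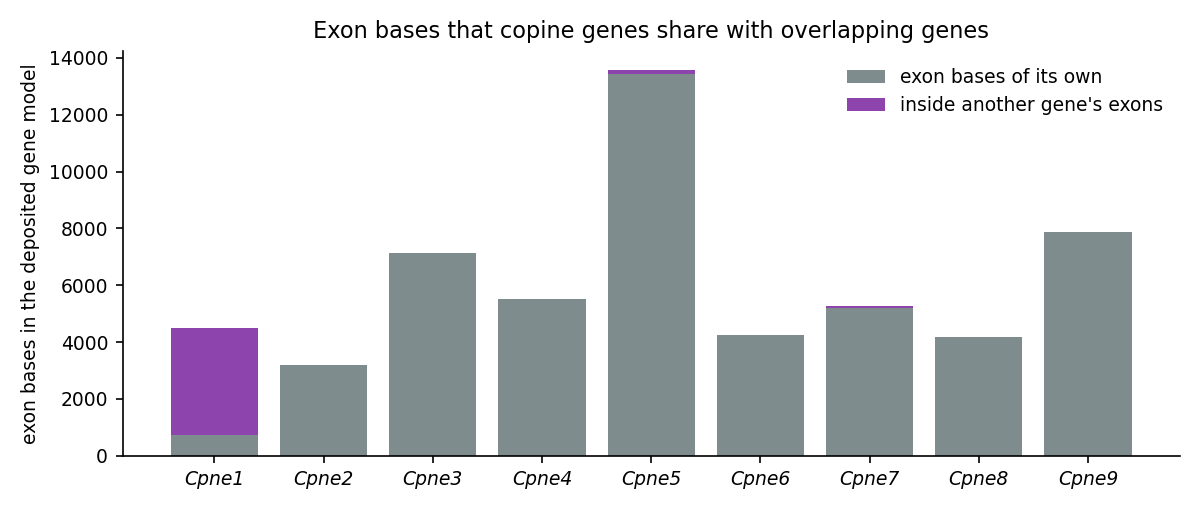
Exon bases of each copine gene in the deposited gene models (bar height, in bases), split into bases of its own (grey) and bases that also lie inside exons of another gene on either strand (purple). For Cpne1, 3789 of 4507 bases are shared, and for every other member the shared part is at most 146 bases.

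The wild-type clones gave a second reference for Cpne1. Their 2 libraries had 3 and 7 counts of Cpne1. Scaled to the 11512 genes that both tables list, the level was 0.224 and 0.342 CPM in DeltXp, 0.698 and 0.346 CPM in DeltXp_DeltXm, 0.453 and 1.18 CPM in WT_clone, and 1.93, 4.81 and 4.49 CPM in WT_EV. The WT_clone values overlapped those of DeltXp_DeltXm and lay below every WT_EV value. WT_clone differed from WT_EV by -2.18 on the log2 scale (SE 0.79, interval -3.92 to -0.44, adjusted p 0.0567), a comparison in which 30.6% of the 3302 genes tested passed. Against WT_clone, the log2 change was -1.42 in DeltXp (SE 1.004, interval -3.63 to 0.79, adjusted p 0.280; 40.2% of genes passed) and -0.61 in DeltXp_DeltXm (SE 0.92, interval -2.63 to 1.41, adjusted p 0.664; 25% of genes passed). None of the 3 comparisons passed for Cpne1, so its call against WT_EV did not recur against the other wild-type group.

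Cpne5 had the reverse pattern of Cpne8, at a far lower level. Cpne5 is known for its expression in the developing and adult nervous system. Cpne5 (ENSMUSG00000024008) lies on the minus strand at chr17:29155556-29238167. It had no count in any of the 4 deletion libraries, and 15, 30 and 4 counts in WT_EV, which is 0.844, 1.27 and 0.240 CPM. Against a floor of 3 counts over each deletion group it was at least 11.9-fold lower in DeltXp and at least 12.9-fold lower in DeltXp_DeltXm. It reached the filter on low counts through WT_EV alone, so these bounds are a description and no p is given. Without WT_EV replicate 1 or WT_EV replicate 2 it missed the filter. Of the 5 neural markers, Tubb3 averaged 0.706 CPM in DeltXp, 0.758 CPM in DeltXp_DeltXm and 9.26 CPM in WT_EV. Syn1 went the other way, at 0.552 CPM in DeltXp, 0.364 CPM in DeltXp_DeltXm and 0.0728 CPM in WT_EV, and the other 3 had no count. With offsets the log2 change of Tubb3 was -0.21 in DeltXp and -0.35 in DeltXp_DeltXm and did not pass. The part of neural RNA in the level of Cpne5 was not tested.

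The other 4 members were at or near 0 everywhere and were not tested. Cpne6, the brain member known from hippocampal neurons, had no count in any of the 7 libraries. Cpne4 had 2 counts, both in DeltXp_DeltXm replicate 1. Cpne7 had none in the 4 deletion libraries and 3, 3 and 0 counts in WT_EV. Cpne9 had 0 and 4 counts in DeltXp, 0 and 2 in DeltXp_DeltXm, and 0, 5 and 6 in WT_EV. No comparison was made for these 4 genes.

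The edgeR calls of the 8 members other than Cpne8 thus came to 1 gene higher (Cpne3) and 3 lower (Cpne1, Cpne2 and Cpne5) in DeltXp, and 1 higher (Cpne3) and 2 lower (Cpne1 and Cpne5) in DeltXp_DeltXm, against the same WT_EV libraries. In those comparisons 72.3% of all tested genes passed in DeltXp, 32.2% higher and 40.1% lower, and 66.8% in DeltXp_DeltXm, 30.9% higher and 36% lower. Most genes that could be tested were called, so these counts say nothing particular about the copines. With offsets, 51.7% of genes passed in DeltXp, 25% higher and 26.7% lower, and 43.6% in DeltXp_DeltXm, 21.8% in either direction, and the only copine genes past the threshold, Cpne8 aside, were Cpne1 and Cpne5, which had entered the test through WT_EV alone. Neither Cpne2 nor Cpne3, which reached the filter in every library, passed with offsets.

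The summed level and make-up of copine RNA are described without offsets. Most of the sum is Cpne3, whose change did not pass with offsets, and the change of Cpne2 turned sign with them. The 9 genes summed to 398 and 291 CPM in DeltXp, 176 and 227 CPM in DeltXp_DeltXm, and 57.4, 61.7 and 66.1 CPM in WT_EV. Levels per kilobase of exon allow members to be ranked. In DeltXp the order was Cpne3 (mean 38.4 CPM per kb), Cpne8 (16.7) and Cpne2 (0.241). In DeltXp_DeltXm it was Cpne3 (24.2 CPM per kb), Cpne8 (6.28) and Cpne2 (0.736). In WT_EV it was Cpne3 (7.90 CPM per kb), Cpne2 (1.15), Cpne1 (0.145) and Cpne5 (0.0577). The ranges of these neighbours did not overlap in DeltXp, in DeltXp_DeltXm, or between Cpne3 and Cpne2 in WT_EV. On full exon lengths, Cpne1 lay below Cpne2 and overlapped Cpne5 there. Of the 4507 exon bases of Cpne1 only 718 are its own, and how reads in shared exons were counted is not stated. The place of Cpne1 beside Cpne2 and Cpne5 is therefore uncertain.

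Cpne8 took 30.0% and 30.3% of copine RNA per length in DeltXp, 15.4% and 23.7% in DeltXp_DeltXm, and none in WT_EV, where its absence is the choice by which the family was picked. Cpne3 took 69.7% and 69.0% in DeltXp, 80.3% and 75.3% in DeltXp_DeltXm, and 83.0%, 88.7% and 83.4% in WT_EV. Per length, Cpne3 was 2.32 and 2.27 times Cpne8 in DeltXp, and 5.22 and 3.18 times in DeltXp_DeltXm. Cpne2 took 7.60% to 15.1% in WT_EV and at most 4.17% in a deletion library.

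**Figure D4:**
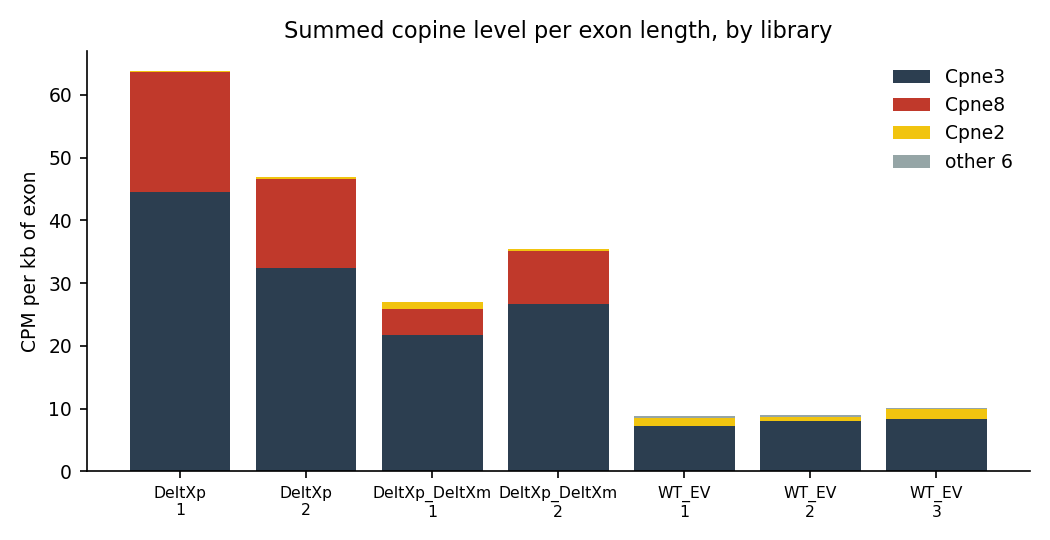
Summed level of the 9 copine genes in each library, in TMM-scaled CPM per kb of exon, stacked by gene (Cpne3 dark blue, Cpne8 red, Cpne2 yellow, the other 6 grey). Cpne8 makes up 15.4% to 30.3% of each deletion library's bar and is missing from the WT_EV bars, in which Cpne2 makes up 7.60% to 15.1%.

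The genes whose levels were most like those of Cpne8 over the 7 libraries were sought among the 65 named tested genes with no WT_EV count, by Pearson's r of log2(CPM + 0.5). All of them share the 3 zeros in WT_EV, so r mostly restates that choice and is given as a description. Lpcat2, an acyltransferase gene of membrane phospholipids, came first (r = 0.987), with 25.1 and 7.99 CPM in DeltXp and 7.01 and 10.5 CPM in DeltXp_DeltXm. Vegfc, a growth factor gene of lymphatic vessels, came next (r = 0.984), with 11.9 and 7.30 CPM in DeltXp and 5.47 and 3.38 CPM in DeltXp_DeltXm. Far2 (r = 0.9748), Reps2 (r = 0.974) and Apol7d (r = 0.961) lay at 1.27 CPM or below in every library. None reached the level of Cpne8 in any deletion library.

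Cpne8 had 2 protein-coding neighbours within 500 kb, Alg10b at 254 kb on the side of lower coordinates and Kif21a at 254 kb on the other. Alg10b, which encodes a glucosyltransferase of N-glycan assembly, averaged 575 ± 72.1 CPM in DeltXp (n = 2), 296 ± 51.4 CPM in DeltXp_DeltXm (n = 2) and 69.1 ± 3.88 CPM in WT_EV (n = 3). It rose by 3.06 in DeltXp (SE 0.22, adjusted p 4.58e-06) and by 2.10 in DeltXp_DeltXm (SE 0.22, adjusted p 3.07e-05) on the log2 scale, and by 1.16 (adjusted p 0.00109) and 0.60 (adjusted p 0.0312) with offsets. The DeltXp_DeltXm change of Alg10b did not pass with the replicate block and offsets together (0.52, adjusted p 0.113). Kif21a, a kinesin gene, averaged 281 ± 23.4 CPM in DeltXp, 164 ± 27.6 CPM in DeltXp_DeltXm and 96.6 ± 26.6 CPM in WT_EV. It rose by 1.54 in DeltXp (adjusted p 4.62e-04; 0.90 with offsets, adjusted p 0.0154) and by 0.76 in DeltXp_DeltXm (adjusted p 0.0260), where it did not pass with offsets (0.09, adjusted p 0.791), nor with the replicate block (0.65, adjusted p 0.0787), nor without DeltXp_DeltXm replicate 2 (adjusted p 0.152), WT_EV replicate 1 (0.0971) or WT_EV replicate 3 (0.0692). Both neighbours were thus well expressed in WT_EV, where Cpne8 had no count.

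Cpne8 and Cpne2 start in CG-rich sequence. RefSeq promoters of GRCm38.p6, from 250 bases before to 50 after the start, were matched for 6 of the 9 members. Counted as CG pairs (the letters CG, which read the same on both strands), Cpne2 had 39, Cpne8 and Cpne5 32 each, Cpne1 19 and Cpne9 11, while the 2 promoters of Cpne4 had 14 and 1. The median over 32851 promoters was 7. At least 32 CG pairs were found in 9.52% of all promoters and at least 39 in 4.45%. No member's promoter held TATAAA on either strand, a word found in 13.6% of all promoters. Cpne8 and Cpne5, of opposite pattern, thus had the same count of CG pairs. The sequence upstream of the deposited first exon is shown for Cpne8, the gene without a WT_EV count (206 bases, chr15:90679433-90679638, minus strand, 21 CG pairs), and for Cpne2, which had counts in all 7 libraries (212 bases, chr8:94532778-94532989, plus strand, 28 CG pairs), with CG pairs in capitals.
Cpne2 upstream: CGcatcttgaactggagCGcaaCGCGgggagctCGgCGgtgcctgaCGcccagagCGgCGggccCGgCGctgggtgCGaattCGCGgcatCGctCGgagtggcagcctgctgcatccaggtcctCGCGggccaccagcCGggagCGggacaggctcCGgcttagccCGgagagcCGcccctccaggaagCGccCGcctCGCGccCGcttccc
Cpne8 upstream: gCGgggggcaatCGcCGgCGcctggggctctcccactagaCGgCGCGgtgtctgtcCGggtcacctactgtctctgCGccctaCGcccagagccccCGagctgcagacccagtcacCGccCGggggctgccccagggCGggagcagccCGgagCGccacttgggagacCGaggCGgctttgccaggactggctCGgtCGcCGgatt
The counts hold no methylation or binding values for these windows, so the sequences are a description.

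Families known for calcium-dependent membrane binding were counted next, as a list of 53 annexin, synaptotagmin, ferlin, protein kinase C and related genes. Whether each member binds calcium was not checked. Of the 53 genes, 25 were tested. In DeltXp 7 rose and 8 fell, while 10 missed the threshold, and the list's median log2 change was 0.15, beside -0.35 over all tested genes. In DeltXp_DeltXm 8 rose and 5 fell, while 12 missed it, and the median was 0.16, beside -0.15 over all tested genes. With offsets the calls came to 5 higher and 4 lower in DeltXp, and 3 higher and 2 lower in DeltXp_DeltXm. That is 15 and 13 of 25 genes called, and 9 and 5 with offsets, beside 72.3% and 66.8% of all tested genes, and 51.7% and 43.6% with offsets. Calls thus lay in both directions, and their number fell with offsets in the list as over all genes.

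Pla2g4a, the calcium-dependent phospholipase that releases arachidonic acid, had a pattern unlike that of Cpne8. It had 126 and 200 counts in DeltXp, 0 and 2 in DeltXp_DeltXm, and 0, 0 and 2 in WT_EV. DeltXp libraries stood apart from all others, and the gene could be tested only through them, where it is high. Its p-values, against WT_EV and between the deletions, are therefore a description. The log2 change was 7.44 in DeltXp against WT_EV (interval 5.28 to 9.59, adjusted p 7.65e-05), or 6.12 with offsets (adjusted p 8.34e-04), and -7.27 in DeltXp_DeltXm against DeltXp (interval -9.73 to -4.82, adjusted p 0.0351), or -7.05 with offsets (adjusted p 0.0417). In DeltXp_DeltXm against WT_EV it was 0.16 (adjusted p 0.927), or -0.94 with offsets (adjusted p 0.640). No other gene of the list passed between the deletions in this test. The difference between the deletions no longer passed without DeltXp replicate 1 (adjusted p 0.0808), DeltXp replicate 2 (0.0873), DeltXp_DeltXm replicate 1 (0.222) or WT_EV replicate 1 (0.0771), at log2 changes of -7.43 to -6.40.

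Esyt3, which encodes a tether between endoplasmic reticulum and plasma membrane, was higher in both deletions. It had 2.97 and 2.24 CPM in DeltXp, 7.34 and 11.5 CPM in DeltXp_DeltXm, and 0.113, 0.422 and 0.0600 CPM in WT_EV. It rose by 3.58 in DeltXp (adjusted p 7.70e-04) and by 5.44 in DeltXp_DeltXm (adjusted p 8.08e-05) on the log2 scale, and by 4.58 and 6.19 with offsets. Too few WT_EV libraries reached the filter on low counts, so Esyt3 was tested only through the deletion libraries, where it is high. Its p-values are therefore a description. Esyt1, of the same family, was lower. It had 13.9 and 25.3 CPM in DeltXp, 22.8 and 15.5 CPM in DeltXp_DeltXm, and 63.8, 55.8 and 57.4 CPM in WT_EV. It fell in both, with log2 changes of -1.59 in DeltXp (adjusted p 0.00155) and -1.63 in DeltXp_DeltXm (adjusted p 0.00159), or -1.77 and -1.91 with offsets.

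The ferlins Myof and Dysf, which act in membrane fusion and repair, also differed in opposite directions. Myof rose by 1.38 in DeltXp (adjusted p 0.00170) and by 1.999 in DeltXp_DeltXm (adjusted p 2.18e-04), with 318 to 630 CPM in the deletion libraries, against 109 to 203 CPM in WT_EV. Dysf fell in both, with log2 changes of -3.11 in DeltXp (adjusted p 9.67e-05) and -2.88 in DeltXp_DeltXm (adjusted p 1.93e-04), with 1.64 to 3.20 CPM in the deletion libraries, against 18.7 to 25.7 CPM in WT_EV. With offsets Myof had 0.98 (adjusted p 0.0110) and 1.59 (adjusted p 0.00145), while Dysf shrank to -1.22 (adjusted p 0.0235) in DeltXp and -1.08 (adjusted p 0.0411) in DeltXp_DeltXm. With the replicate block and offsets together Dysf passed in neither, at -0.94 (adjusted p 0.0660) and -0.79 (adjusted p 0.119). Prkca, the gene of protein kinase C alpha, rose by 2.39 in DeltXp (adjusted p 2.10e-05) and by 1.43 in DeltXp_DeltXm (adjusted p 6.51e-04), or by 1.37 (adjusted p 0.00148) and 0.50 (adjusted p 0.122) with offsets. Anxa11, an annexin gene, fell in both, with log2 changes of -4.03 in DeltXp (adjusted p 9.66e-05) and -2.09 in DeltXp_DeltXm (adjusted p 0.00329), or -1.80 (adjusted p 0.00723) and -0.09 (adjusted p 0.866) with offsets. Between the deletions neither gene passed (adjusted p 0.107 for Prkca and 0.0938 for Anxa11).

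**Figure D5:**
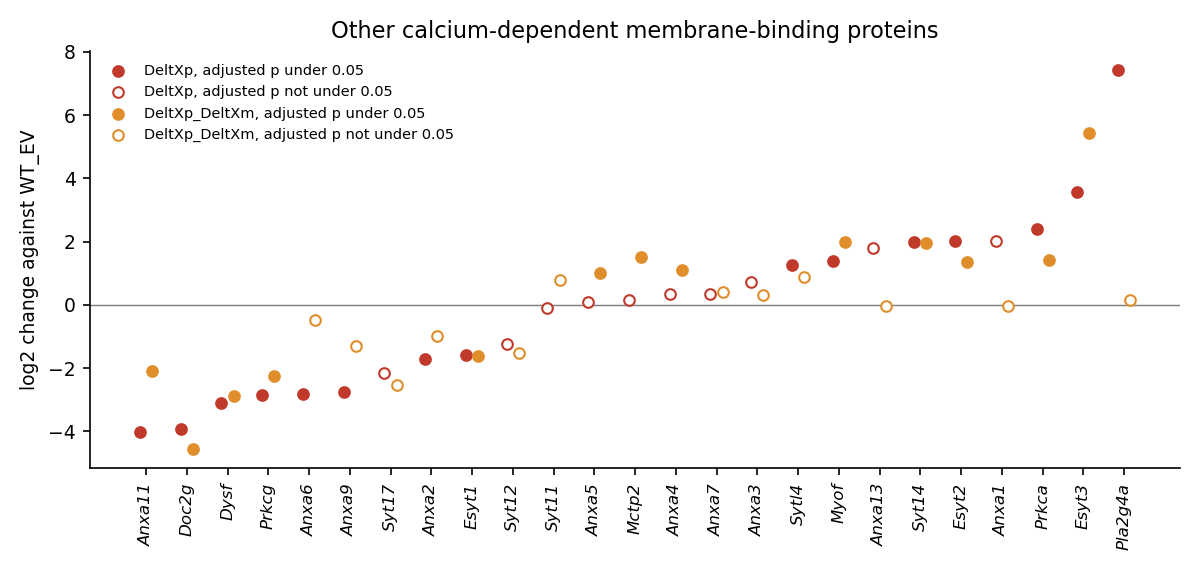
Log2 change against WT_EV of the 25 tested genes of the calcium-dependent membrane-binding list, ordered by their change in DeltXp (red) and with DeltXp_DeltXm beside it (orange); filled points passed the edgeR test at an adjusted p under 0.05 and open points did not. Genes lie on both sides of 0, with 7 filled points above and 8 below in DeltXp, and Pla2g4a is at 7.44 in DeltXp and 0.16 in DeltXp_DeltXm.

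The last group was 8 genes of proteins reported to bind a copine, mostly the human or rat protein. Against WT_EV, 1 rose and 5 fell in both deletions, beside 72.3% of all tested genes called in DeltXp and 66.8% in DeltXp_DeltXm. With offsets 2 were higher and 4 lower in DeltXp, and 4 higher and 4 lower in DeltXp_DeltXm, beside 51.7% and 43.6% of all tested genes. Rac1, a small GTPase of the actin cytoskeleton, averaged 272 ± 6.96 CPM in DeltXp (n = 2), 346 ± 66.9 CPM in DeltXp_DeltXm (n = 2) and 132 ± 15.0 CPM in WT_EV (n = 3), and rose by 1.04 and 1.39 on the log2 scale, or by 0.98 and 1.17 with offsets. Erbb2, the receptor gene whose human product binds human copine 3, averaged 2.05 ± 0.654 CPM in DeltXp, 1.46 ± 0.227 CPM in DeltXp_DeltXm and 24.4 ± 2.51 CPM in WT_EV. It fell in both, with log2 changes of -3.57 in DeltXp (adjusted p 2.26e-05) and -4.06 in DeltXp_DeltXm (adjusted p 2.07e-05), or -0.87 (adjusted p 0.0340) and -1.49 (adjusted p 0.00444) with offsets. With the replicate block and offsets together the DeltXp change of Erbb2 did not pass (-0.84, adjusted p 0.0908). Rack1, a scaffold protein gene, fell in both, by log2 changes of -4.33 and -4.28, or -4.34 and -4.48 with offsets.

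Ppp5c, a protein phosphatase gene, fell by log2 changes of -4.60 in DeltXp and -3.88 in DeltXp_DeltXm, and Rela, an NF-kappa-B subunit gene, of -4.95 and -4.37. With offsets both passed with smaller changes, -1.80 and -1.32 for Ppp5c and -1.51 and -1.05 for Rela. Ube2m, a NEDD8-conjugating enzyme gene, fell by log2 changes of -3.90 in DeltXp and -2.47 in DeltXp_DeltXm, and with offsets had -0.13 (adjusted p 0.800) and 1.34 (adjusted p 0.0211). Map2k1, a MAP kinase kinase gene, did not pass, at 0.60 in DeltXp and 0.46 in DeltXp_DeltXm. It passed in DeltXp with RLE size factors (adjusted p 0.0374), with DESeq2 (0.0370), with only the 2 groups compared (0.0172), and without DeltXp_DeltXm replicate 1 (0.0245) or 2 (0.0385). In DeltXp_DeltXm it passed without DeltXp_DeltXm replicate 1 (adjusted p 0.0238), and it passed in both with offsets (1.66 and 1.19), also with the block added. Ywhag, a 14-3-3 protein gene, did not pass at -0.28 and 0.04, and with offsets had 0.85 (adjusted p 0.0542) and 0.91 (adjusted p 0.0485), and it passed in both with the block and offsets together (1.27 and 1.31). None of the 8 passed between the deletions.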

How the data were processed

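The deposited values are raw counts of reads for each gene. Per the submitters' processing notes, the authors used FastQC, STAR 2.7.9a and featureCounts 2.0.1 with GRCm38 (mm10). Per the labels' protocols, total RNA went into a stranded kit of either of 2 makes. Not given in the sources used here were the strand setting, RNA selection, annotation release and how reads that mapped to several places or genes were handled. Symbols (55141 genes), GC content and transcripts came from GENCODE M21, in which 54821 genes had the same start and end. Promoters came from RefSeq (GRCm38.p6). Only a part of the WT_clone table was held (11512 genes), so its column sums are not depths, and comparisons with WT_clone used the shared genes.

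Counts were filtered with filterByExpr (at least 10 counts at the median library total in at least 2 libraries), scaled by TMM and tested with the quasi-likelihood test of edgeR 4.0.16 in R 4.3.3 (robust, group as the model term, all libraries in 1 fit), and p-values were adjusted by Benjamini-Hochberg over the whole tested table (15331 genes in 7 libraries, 3302 in 9). A gene passed at an adjusted p under 0.05. The SE is the log2 change over the root of its F value, and intervals are 95%. The biological coefficient of variation was 33.7% in 7 libraries and 39.3% in 9. The test was checked on simulated counts with fewer changed genes, a smaller spread and no GC trend, so that check does not cover the conditions of these data. Offsets were smooth fits of each library's deviation on GC content and log length (mgcv 1.9.3). DESeq2 1.42.0 was an alternative. The library titles of DeltXp carry a pair of numbers in opposite order, and the one after rep was used. Same-numbered libraries deviated from their group means with correlations of -0.201 to 0.0573, so numbers were not taken to pair libraries.

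The members and lists were chosen with earlier results of these data known. The rule for named genes took the 9 copines, the 5 genes most like Cpne8, its protein-coding neighbours within 500 kb, genes overlapping a member, all tested copine partners, and from the calcium list the 2 higher and 2 lower genes of lowest p per deletion. Pairs of coding sequences were aligned with Biopython 1.88.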

Additional observations from a re-analysis of the deposited data

How the results depend on the processing

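There were 269 values for single copine genes under other settings. Of these, 249 were counted as unchanged, 12 lost the call, 3 gained it and 5 changed sign. Unchanged means the same direction and side of the threshold, except for Cpne8 against WT_EV. There, with no test, it means a log2 change that moved by less than 1. Cpne5 had no count in either deletion group, so its call between them could not change. Fits in which a gene was not tested are left out. Of 559 values for other named genes these numbers were 511, 19, 12 and 17. With GC and length offsets the copine genes called higher, Cpne8 aside, went to 0 in DeltXp and 0 in DeltXp_DeltXm against WT_EV, both also with the block added, and Cpne2 went to 0.072 and, with the block, 0.53 in DeltXp and to 1.36 and 1.59 in DeltXp_DeltXm. Other sign changes were Ube2m in DeltXp_DeltXm (1.34 with offsets, 1.20 with block and offsets), Kif21a (-0.030 with block and offsets) and Pla2g4a (-0.94 with offsets), and Pla2g4a without single libraries (range -2.80 to 3.05). Ywhag, which passed in neither comparison as reported, changed sign in DeltXp with offsets (0.85), block and offsets (1.27), block (0.033) and crossed block (0.050) and without single libraries (range -0.49 to 0.020), and in DeltXp_DeltXm without single libraries (range -0.17 to 0.34) and over protein-coding genes without histones (-0.018). Cpne1 in DeltXp_DeltXm against WT_clone ran from -1.17 to 0.18 without single libraries, the sign changing without WT_clone replicate 2. Copine genes called lower ran from 1 to 3 in DeltXp and 0 to 2 in DeltXp_DeltXm without single libraries (0 without WT_EV replicate 2), and were 1 in DeltXp_DeltXm under the block, block and offsets, crossed block and DESeq2. Against WT_EV all genes called came to 7152 in DeltXp with block and offsets, and in DeltXp_DeltXm to 6691 with offsets and 5813 with block and offsets. Between the deletions 68 genes passed, but 1436 without the filter, 36 with offsets, 41 with block and offsets, 10 with only those 2 groups, 1167 with DESeq2, 1573 with the crossed block, and 2 to 480 without single libraries. With WT_clone, counts were 555 (block and offsets) for WT_clone against WT_EV, 514 (offsets) and 439 (block and offsets) for DeltXp, and 230 and 161 for DeltXp_DeltXm. Without single libraries they ran from 552 to 1057, 692 to 1344 and 415 to 949 in these 3 comparisons. The replicate block ended 1 copine call, Cpne1 in DeltXp_DeltXm (adjusted p 0.0822). The crossed block, which swaps the DeltXp numbers, was chosen after seeing the data and called 11253, 10447 and 1573 genes in the 3 comparisons of 7 libraries. RLE size factors moved the median of all genes in DeltXp against WT_EV by 0.15 and in WT_clone against WT_EV by -0.11 on the log2 scale, and changed no copine call. The cause of these shifts was not tested. Cpne1, Cpne5 and the 4 untested members rest on at most 30 counts in a library, and no setting varied depth.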
